A study of Mus musculus with 60 samples.

Results

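CTCF-ΔC, a CTCF protein that ends after its zinc fingers, was targeted with dTAG13 in mouse embryonic stem cells that received AGB1 at the same time, against ΔN-CTCF, the only other CTCF protein they made. The comparison set the 2 libraries that received AGB1 and dTAG13 together for 2 h directly against the 2 libraries that received AGB1 alone for 2 h, and it covered the 13764 of 27665 counted genes whose mean count was above 20 in either group. It used 4 of the 60 libraries of the series. All of them were EU-seq libraries of E14 embryonic stem cells, a mouse line kept undifferentiated in N2B27 medium with LIF and inhibitors of MEK and GSK3. In EU-seq, cells take up 5-ethynyl uridine (here 0.5 mM for 20 min) and the RNA made during that pulse is captured and sequenced, so that a value measures recent transcription and not the RNA already in the cell.

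The line, bTAG-ΔN-CTCF/dTAG-CTCF-ΔC, carries a truncation on each Ctcf allele and makes no full-length CTCF, also in its control libraries. One allele lacks the N-terminal region and carries BromoTag (bTAG), which AGB1 sends to degradation. The other lacks the C-terminal region and carries the FKBP12-F36V tag (dTAG) with GFP, the target of dTAG13. Residues 266 to 736 remain in ΔN-CTCF and residues 1 to 577 in CTCF-ΔC, as the column headers give them. Control cells retained both proteins. By design dTAG13 left ΔN-CTCF in place, AGB1 left CTCF-ΔC in place, and the 2 agents together targeted both proteins. The study states that degrons do not remove all of CTCF and that what remains may keep some function. Each of these 4 groups had 2 libraries, and all 8 belong to batch CC71. The labels give 100 nM AGB1 and 100 nM dTAG13, whereas the column headers give 200 nM dTAG13. The line was grown from a single picked colony, and the study calls its replicates biological without saying, in the sources used here, whether they were separate cultures, so p-values measure only the spread between these libraries. Protein levels after each agent were not measured in these files.

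CTCF binds DNA through its zinc fingers, its N-terminal region makes the contact with cohesin that stops loop extrusion, and it is best known for setting the ends of chromatin loops. At some promoters CTCF binds close to the transcription start site and the genes there lose transcription when it is removed. A line with one truncated protein on each allele lets each truncated protein be withdrawn on its own or together with the other.

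The promoters of some CTCF-activated genes share a word of 8 bases. The word GGGCGCTG was read from the promoters themselves, as the 8-base word whose share in the CTCF-activated genes described further on most exceeded its share in all tested genes, and it is shown because several of the genes that fell in the comparison hold it too. The stretches are RefSeq promoters on GRCm38.p6, each written 5′ to 3′ along its gene with the word in capitals. Nle1, Inpp5e and Snhg17 fell when dTAG13 joined AGB1, whereas Rbm45 and Csnk2a2 are CTCF-activated genes in which no further change passed the test.
Nle1, chr11:82908425-82908454, minus strand: cgaacacgagaGGGCGCTGtagccggaggt
Inpp5e, chr2:26409236-26409265, minus strand: cggccgcgagaGGGCGCTGtggcggcgata
Snhg17, chr2:158361586-158361615, minus strand: tctcctcgtggGGGCGCTGgagggcccgcc
Rbm45, chr2:76369913-76369942, plus strand: gtggcaccaggGGGCGCTGcagaatgttcc
Csnk2a2, chr8:95488890-95488919, minus strand: cgcactgtaggGGGCGCTGtgggccggggc
The word begins 48 bases before the RefSeq start in Nle1, 35 in Inpp5e, 95 in Snhg17, 60 in Rbm45 and 88 in Csnk2a2, and in all 5 stretches shown it runs in the direction of the gene. Snhg17 holds it a second time, 24 bases before the start and on the opposite strand. Among the CTCF-activated genes 13 hold it along the gene and 2 on the opposite strand. The word was written in the direction that more of these promoters hold along the gene. That the count along the gene is the larger was therefore fixed by that choice. Searched on both strands, it was in 2.66% of 32851 RefSeq promoters and in 4.76% of the 9586 tested genes whose counted start lay within 500 bp of one. Among genes with a matched promoter it was in 9 of 51 that fell (17.6%) and in 1 of 22 that rose (4.55%). The CTCF-activated genes hold it in 14 of 51 (27.5%), a share fixed by the choice of the word. Some of the genes that fell are among these, and without them the word was in 7 of 45 that fell (15.6%), with 4.64% for tested genes outside the list. A match is a description of the letters and not of a bound site.

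Adding dTAG13 to AGB1 changed few genes, and by small amounts. A change is called here at an adjusted p under 0.05 (edgeR quasi-likelihood test, Benjamini-Hochberg over all 13764 genes) and at least 2-fold after the log2 fold changes were centred on the median of expressed genes. Only 3 genes were called lower (0.0218%), namely Nle1, Bdh2 and Inpp5e, and 0 were called higher (0%) by edgeR. DESeq2 called 0 genes in either direction, and edgeR called 0 lower with a mean count above 100. Neither of these fits gave an adjusted p for Nle1, Bdh2 or Inpp5e, so the 3 genes could not be called there. In the reported fit 1627 genes (11.8%) had an unadjusted p under 0.05 in either direction. Without the 2-fold limit, 78 genes fell (0.567%) and 37 rose (0.269%), 115 in all (0.836%). Their median change was -0.30 and 0.33 on the log2 scale, about 1.23-fold down and 1.26-fold up. Some genes have several counted transcripts that share reads, and the 78 come to 72 gene symbols and 3 transcripts with no symbol, the 37 to 36 symbols. These counts moved with whichever library was left out. They shrank without either AGB1 library and grew without either both-agents library. In fits of this kind the spread comes from the pair that remains, and the lone library is assumed to vary like it.

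Among the 8497 expressed genes, those above 15 TPM (counts scaled for gene body length and library size), 79 were at least 1.3-fold lower (0.93%) and 53 at least 1.3-fold higher (0.624%), with no test applied. Only 1 of these was more than 2-fold lower, 20 were 1.5- to 2-fold lower and 58 were 1.3- to 1.5-fold lower. On the other side 48 were 1.3- to 1.5-fold and 5 were 1.5- to 2-fold higher. A change of less than 1.2-fold was found for 8071 genes. The genes that fell had a median gene body of 67284 bp and those that rose 20868 bp, against 25293 bp for all tested genes, and their median mean count in AGB1 libraries was 1007 and 1126 against 318.75.

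**Figure D1:**
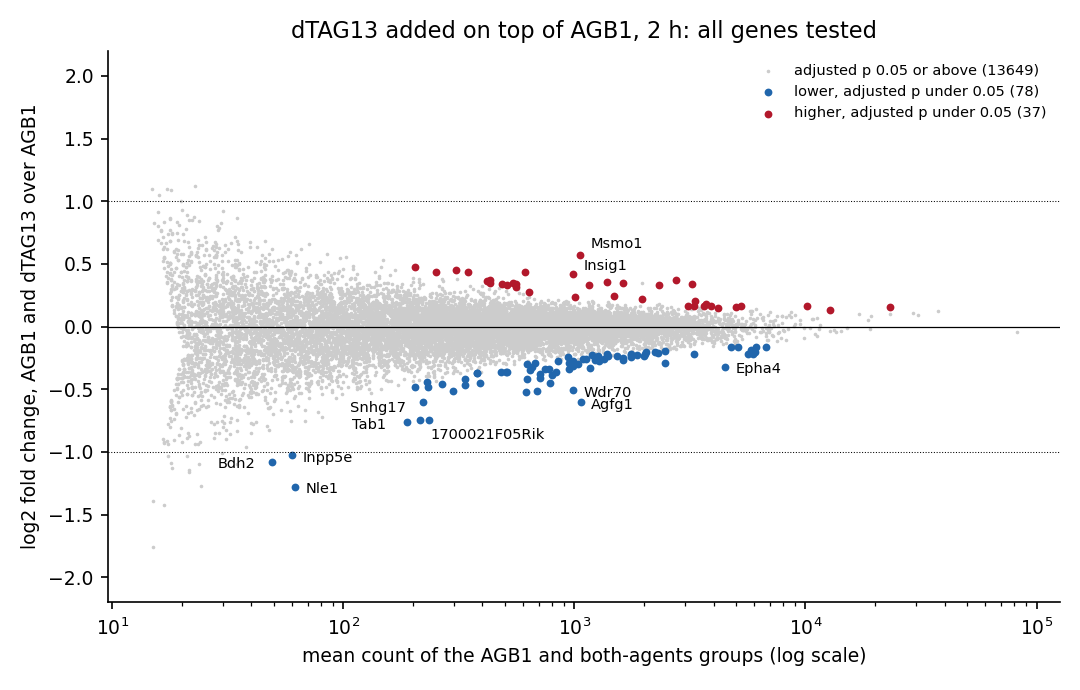
Each point is 1 of the 13764 tested genes, with the mean count of the AGB1 and both-agents groups on the horizontal log axis and the log2 fold change of AGB1 and dTAG13 over AGB1 on the vertical axis. Blue points are the 78 genes that fell, red points the 37 that rose, and dotted lines mark 2-fold; all but 3 of the coloured points lie within 2-fold.

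Most of the largest falls were at genes that AGB1 alone had also lowered: of the 15 named by size, 10 had passed as lower in AGB1 against control, a comparison that shares the AGB1 libraries. Of all 78 that fell, 16 had passed there as lower, against 1.49% of all genes tested there, and the median was -0.07 with 25 of the 78 above 0. Nle1, a factor of large ribosomal subunit assembly (chromosome 11, 82900768 to 82908411, mm10), had 21.9 and 19.7 CPM (counts scaled to library size) in control libraries. It had 9.21 and 9.19 CPM after AGB1 and 4.05 and 3.49 CPM after AGB1 and dTAG13. Both libraries with both agents lay below both AGB1 libraries, a log2 change of -1.28 ± 0.22 (standard error, SE) with an edgeR adjusted p of 0.00101. The counts behind it were low, 78 and 90 after AGB1 and 47 and 32 after both agents. When dTAG13 was given alone Nle1 stayed at 17.1 and 23.1 CPM, a range that holds both control values.

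Tab1, which encodes a binding partner of the kinase TAK1, went the same way at higher counts. It had 58.8 and 58.2 CPM in control libraries, 24.5 and 24.6 after AGB1, and 14.8 and 14.2 after both agents. The 2 groups did not overlap and the log2 change was -0.76 ± 0.12 (SE, edgeR adjusted p = 0.000388). Snhg17, a noncoding host gene of small nucleolar RNAs, had already dropped from 136.9 and 142.5 CPM in control libraries to 31.0 and 30.2 after AGB1, and it had 17.3 and 19.5 after both agents (log2 change -0.75 ± 0.11 SE, edgeR adjusted p = 0.000134). 1700021F05Rik had 27.4 and 28.6 CPM after AGB1 and 16.9 and 16.6 after both agents (log2 change -0.75). Its counted body lies wholly within Gm47889 on the other strand, and whether counting used strand is not given in the sources used here, so reads of these genes cannot be told apart.

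Agfg1, which encodes an Arf GTPase-activating protein of vesicle transport, gave the smallest p of the genes that fell. It had 191.8 and 182.8 CPM in control libraries, 128.6 and 137.6 after AGB1, and 88.9 and 87.3 after both agents, a log2 change of -0.60 ± 0.06 (SE, edgeR adjusted p = 1.38e-07). AGB1 alone had a log2 fold change of -0.48 against control, from the same AGB1 libraries. Api5, an inhibitor of apoptosis, had 76.5 and 74.2 CPM after AGB1 and 52.4 and 53.3 after both agents. Dnajc11, a mitochondrial J-domain protein, had 84.1 and 82.7 CPM after AGB1 and 56.6 and 61.5 after both agents. Wdr70, a WD-repeat gene, had 115.8 and 123.9 CPM after AGB1 and 81.2 and 89.1 after both agents. In each of these 3 genes the groups did not overlap, with log2 changes of -0.52, -0.51 and -0.51. Tamm41, an enzyme of mitochondrial phospholipid synthesis, had 37.6 and 42.4 CPM after AGB1 against 29.9 and 28.3 after both agents, and AGB1 had lowered it from 71.7 and 72.4.

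Inpp5e and Bdh2, the other 2 genes past 2-fold, stood on few reads. Inpp5e, a phosphoinositide phosphatase of the primary cilium, had 16.3 and 18.2 CPM in control libraries, 8.50 and 8.27 after AGB1, and 4.92 and 3.17 after both agents (log2 change -1.03, edgeR adjusted p = 0.018). Bdh2, a dehydrogenase, had 7.44 and 6.53 CPM after AGB1 and 3.80 and 2.73 after both agents, from 25 to 64 counts a library. Unlike Nle1 and Inpp5e, Bdh2 was also low after dTAG13 alone, at 5.19 and 6.39 CPM against 10.8 and 9.12 in control libraries, a log2 difference of -0.76 that did not pass (edgeR adjusted p = 0.35). Leaving out AGB1 replicate 2 raised the adjusted p of Nle1 to 0.0823, of Tab1 and of 1700021F05Rik to 0.0659 and of Inpp5e to 0.31, and leaving out AGB1 replicate 1 raised that of Bdh2 to 0.265. Agfg1, Snhg17, Api5, Dnajc11 and Wdr70 passed in every alternative fit that gave them an adjusted p.

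Genes were then taken as CTCF-activated from other lines of the series, so that none of the 4 libraries compared had a part in the choice. The list holds 68 expressed genes that were at least 1.5-fold lower, with adjusted p under 0.05, both after 6 h of IAA (auxin) in CTCF_AID cells, where full-length CTCF carries an auxin degron, and after 2 h of dTAG13 in CTCF_YFAA cells, where the tagged CTCF carries a pair of substitutions in the motif that contacts cohesin. Of these, 65 passed the count filter here. The change passed the test in 9 of the 65 (13.8%), all lower: Nle1, Tab1, Snhg17, 1700021F05Rik, Agfg1, Api5, Dnajc11, Rcc1 and Lrrc59. The share over all tested genes was 0.567%. DESeq2 gave 3 genes of the list as lower, with no adjusted p for Nle1, Tab1, 1700021F05Rik and Snhg17. With the replicate number as a block, edgeR gave 17. The log2 fold change was below 0 in 60 of the 65, against 52% of all tested genes, with a median of -0.24 against -0.01. In 46 of the 65 (70.8%) both libraries with both agents lay below both AGB1 libraries, which held for 21.4% of all tested genes.

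By library, the median CTCF-activated gene was at 98.5% and 100.3% of the control mean after dTAG13 alone, at 58.0% and 55.6% after AGB1, and at 49.8% and 48.6% after both agents. Each both-agents library was below each AGB1 library, and the 4 possible pairs gave median log2 differences of -0.20 to -0.24. Most of the loss was therefore present after AGB1, and dTAG13 added a smaller step. After AGB1, 62 of 67 tested members passed the test as lower, with a median of -0.83, where 203 of 13619 genes (1.49%) fell and 89 (0.653%) rose. With the 2-fold limit AGB1 called 43 genes lower (0.316%) and 12 higher (0.0881%). Of the 43, 35 had enough counts to be tested against both agents. Of these, 5 fell further, where the share over all tested genes was 0.567%. AGB1 against control shares its AGB1 libraries with the main comparison, so the values stand side by side only. After dTAG13 alone 0 of 67 passed by edgeR, where 530 of all 13618 genes (3.89%) had an unadjusted p under 0.05, and the median was -0.01.

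Members differed in how much they lost. Nle1 and Tab1 were lowest on the log2 scale. Rcc1, the nucleotide exchange factor of Ran, had 75.1 and 74.0 CPM after AGB1 and 61.4 and 58.5 after both agents, and Lrrc59, an endoplasmic reticulum membrane protein, had 146.1 and 136.5 against 121.4 and 119.2. The groups did not overlap in either gene. Other members that AGB1 lowered strongly gave no further change that passed: Dusp12, a phosphatase, had 9.91 and 9.08 CPM after AGB1 and 6.47 and 10.8 after both agents, so that its groups overlapped, after 37.4 and 43.0 in control libraries. Rbm45, which holds the word shown above, had log2 differences of -0.15 here and -0.83 for AGB1 against control. Rabggta, a subunit of Rab geranylgeranyl transferase, had 7.44 and 6.63 against 5.26 and 5.13 (log2 difference -0.44 ± 0.21 SE, edgeR adjusted p = 0.433). At the top of the list stood Bola3 with a log2 difference of 0.68 (edgeR adjusted p = 0.328).

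Of the 18 genes the study itself names as having CTCF-activated promoters, 17 were tested, with a median of -0.17. Nle1, Tab1 and Wdr70 passed as lower, 3 of 17 (17.6%), against 0.567% of all tested genes. Since the study had these libraries too, that list is not independent of them. The CTCF-repressed list, made like the activated one but upwards, has 5 genes. None of the 5 passed in either direction by edgeR or DESeq2 and their median was -0.02, whereas all 5 passed as higher after AGB1 alone. Of the 5 genes the study names as having CTCF-repressed promoters, 0 passed by edgeR, 4 were above 0 and the median was 0.16.

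**Figure D2:**
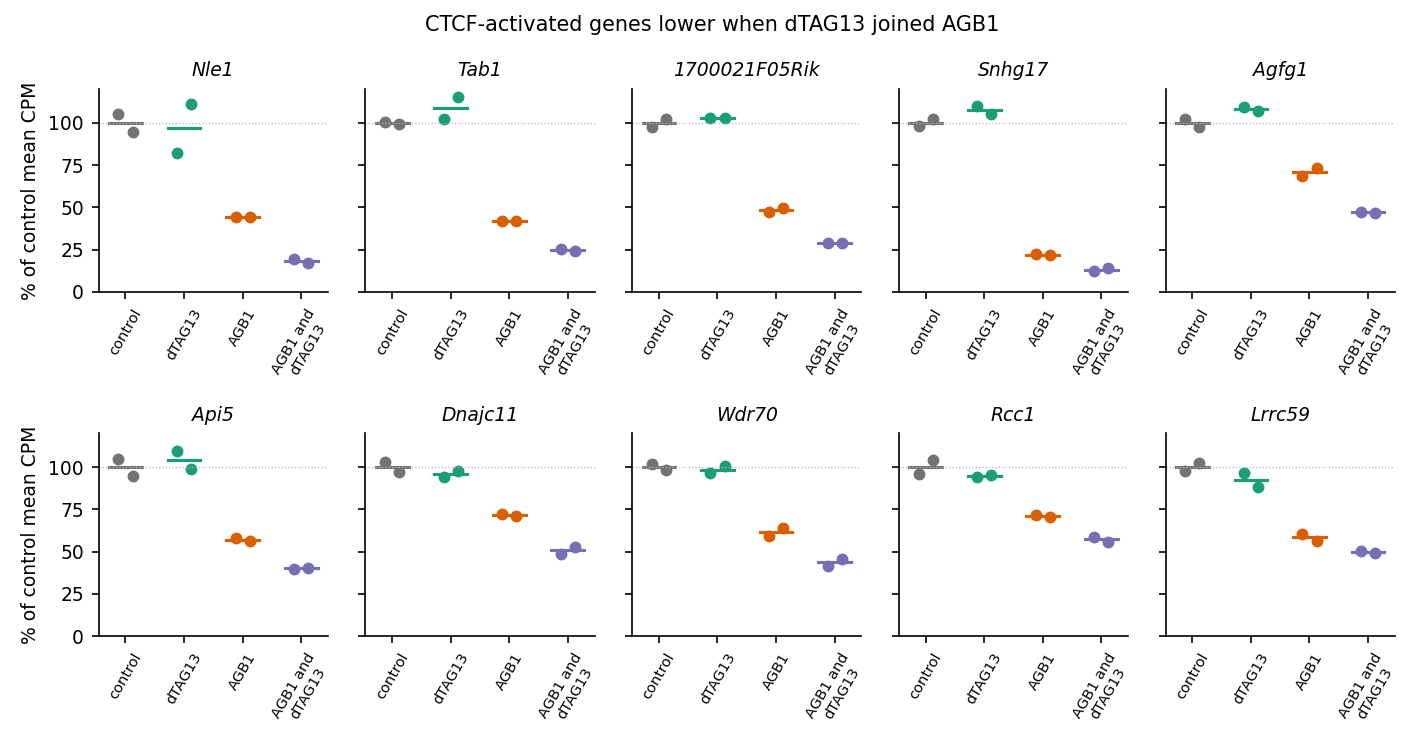
Nascent RNA of the 10 genes that are CTCF-activated by either list and fell when dTAG13 joined AGB1, as percent of the mean CPM of the 2 control libraries, with 1 point per library and a bar at each group mean. In every panel the 2 both-agents libraries lie below the 2 AGB1 libraries, while the dTAG13 libraries lie between 82.4% and 115.1%.

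The same agent at the same time moved fewer genes past the test when ΔN-CTCF was still present. In dTAG13 against control, a comparison that shares no library with the main one, 0 genes were called in either direction by edgeR or DESeq2. Without the fold limit, 1 gene of 13618 fell (0.00734%), Taco1, and 10 rose (0.0734%). None of the 78 genes that fell on top of AGB1 passed in either direction with dTAG13 alone, and their median there was 0.00 with 42 below 0 and 36 above. Total counts were 7733060 to 10464248 in the control and dTAG13 libraries, and the number of genes past a test also depends on depth and spread. The difference between the 2 effects was tested directly as an interaction over all 8 libraries. It passed an adjusted p of 0.05 for 14 of 13903 genes (0.101%), counted transcripts under 13 distinct names. Of the 14, 13 were lower with AGB1 present (0.0935%) and all of these were also among the 78 that fell. For the other genes of the 78 the difference did not pass. Of the 10 genes with the smallest interaction p, Agfg1, Snhg17, Tab1, Api5, Wdr70, 1700021F05Rik, Dnajc11 and Nle1 are CTCF-activated by either list. The other two were Epha4, an ephrin receptor, and Ccdc141, whose dTAG13 effect was 0.36 and 0.43 lower on the log2 scale with AGB1 than without (differences of -0.36 and -0.43). The 1 gene with the opposite sign (0.00719%) was Mycbp2, a ubiquitin ligase, named here after its value was seen. The interaction count was 4 without AGB1 replicate 2 and 6 without AGB1 replicate 1.

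**Figure D3:**
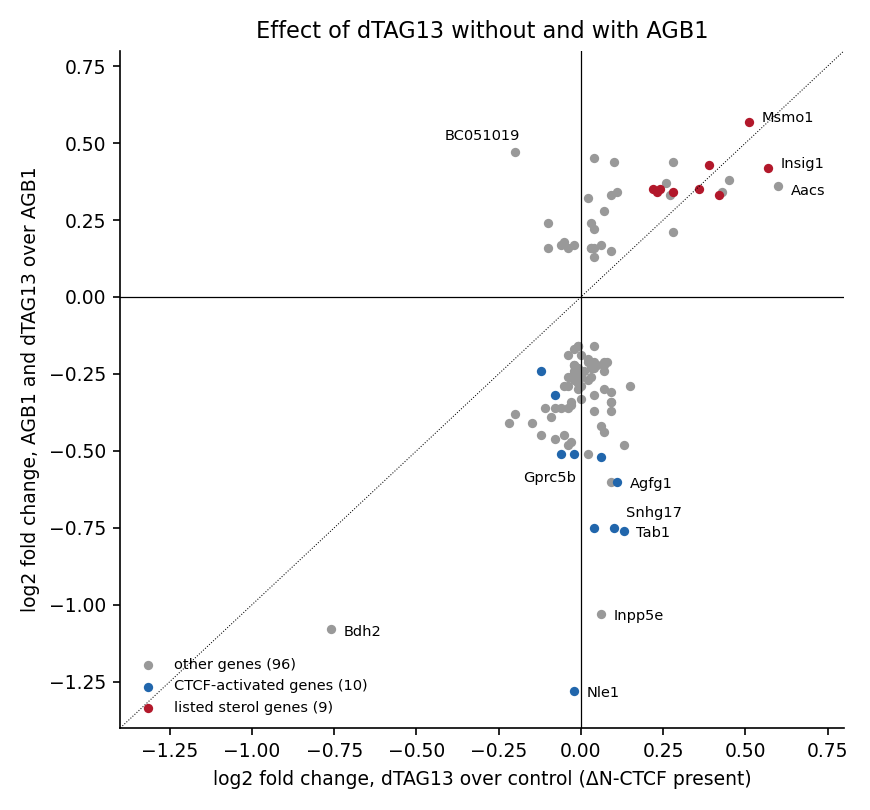
The 115 genes that passed are placed by their log2 fold change for dTAG13 over control, with ΔN-CTCF present (horizontal), and for AGB1 and dTAG13 over AGB1 (vertical); the axes share no library and the dotted line marks equal effects. CTCF-activated genes (blue) lie near 0 on the horizontal axis and below 0 on the vertical axis, while the listed sterol genes (red) lie above 0 on both axes.

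The genes that rose had one clear group, the enzymes that make cholesterol. These enzymes turn acetyl-CoA into mevalonate, squalene and then sterols, and cells raise them together through the transcription factor SREBP2 when sterols run low. The list of 19 enzymes was drawn up after values were seen, so its counts are a description. The change passed in 7 of the 19, all higher, against 0.269% of all tested genes, and all 19 had a log2 fold change above 0, with a median of 0.26. Msmo1, a methylsterol oxidase, had 82.7 and 89.2 CPM after AGB1 and 125.9 and 132.2 after both agents, the largest rise of the 37, with a log2 change of 0.57 ± 0.06 (SE, edgeR adjusted p = 2.5e-07). Cyp51, the lanosterol demethylase, had 53.7 and 51.3 against 74.0 and 68.2. In both genes the groups did not overlap.

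Enzymes from the start to the end of the pathway rose. Hmgcs1, which makes HMG-CoA, had 104.8 and 102.6 CPM after AGB1 and 131.8 and 130.2 after both agents. Fdft1, squalene synthase, had 145.4 and 143.3 against 183.1 and 185.8, and Sqle, squalene epoxidase, 129.0 and 118.3 against 158.0 and 159.4. Nsdhl and Dhcr7, which act late in the pathway, rose by 0.34 each on the log2 scale. The summed CPM of the 19 enzymes was 1007.2 and 1003.5 in AGB1 libraries and 1251.6 and 1264.7 in libraries with both agents. Beyond the enzymes, Insig1, which holds back SREBP processing, had 81.3 and 88.7 CPM after AGB1 against 117.6 and 111.5 after both agents, again without overlap. Srebf2, which encodes SREBP2, had a log2 difference of 0.03 that did not pass. Together 8 of the 36 symbols that rose were enzymes of the list or Insig1. Msmo1 and Insig1 passed in every alternative fit, while without AGB1 replicate 2 the adjusted p was 0.132 for Cyp51, 0.115 for Hmgcs1, 0.0659 for Fdft1, 0.139 for Sqle and 0.505 for Nsdhl. Without AGB1 replicate 1 it was 0.303 for Dhcr7.

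Some of the sterol genes also rose with dTAG13 when ΔN-CTCF was present. Of the 19 enzymes 5 passed there, all higher, against 0.0734% of all genes tested, while Sqle, Nsdhl and Dhcr7 did not (edgeR adjusted p = 0.429, 0.999 and 0.999). With dTAG13 alone, Msmo1 had 114.6 and 115.0 CPM against 84.5 and 76.6 in control libraries, and Insig1 had 108.0 and 110.1 against 74.5 and 72.5, without overlap. The 10 genes that rose with dTAG13 alone included Hmgcs1, Fdft1, Lss, Cyp51, Msmo1, Insig1, Scd2 and Aacs. Lss is lanosterol synthase, Scd2 desaturates fatty acids and Aacs activates acetoacetate for lipid synthesis. Of these 10, 9 were among the 37 that rose on top of AGB1. The remaining gene was Lss, at 40.5 and 44.8 CPM after AGB1 and 53.4 and 52.9 after both agents (edgeR adjusted p = 0.0515). The median over the 19 enzymes was 0.29 on the log2 scale with dTAG13 alone and 0.08 with AGB1 alone, where 0 of 19 passed by edgeR. The summed CPM was 1185.4 and 1193.3 with dTAG13 alone against 937.5 and 955.9 in control libraries.

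Other lines of the series gave further values for the same 19 enzymes. The share of all tested genes past the test is not given here for those lines, so the counts cannot be set against it. In CTCF_YFAA cells given dTAG13, 15 of 19 were higher at 2 h (median 0.51) and 8 of 19 at 4 h (median 0.28), in comparisons that share their control libraries. Among 28 RNA polymerase subunits, 3 were lower and 0 higher in CTCF_YFAA cells at both 2 h and 4 h. Among 12 p53 targets, 1 was lower and 0 higher at both times. In CTCF_AID cells given IAA for 6 h, 0 of 19 passed by edgeR and the median was -0.18. In RAD21_AID cells given IAA for 4 h, 7 were lower and 3 higher with a median of 0.04. That comparison had 12 libraries a group and passed many members of other lists too. Of 28 RNA polymerase subunits 12 were lower and 5 higher there, and of 12 p53 targets 5 were lower and 3 higher. The 4 comparisons in which members rose and none fell all had dTAG13 as the added agent, and dTAG13 itself and the loss of the protein it degrades cannot be told apart in these lines.

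**Figure D4:**
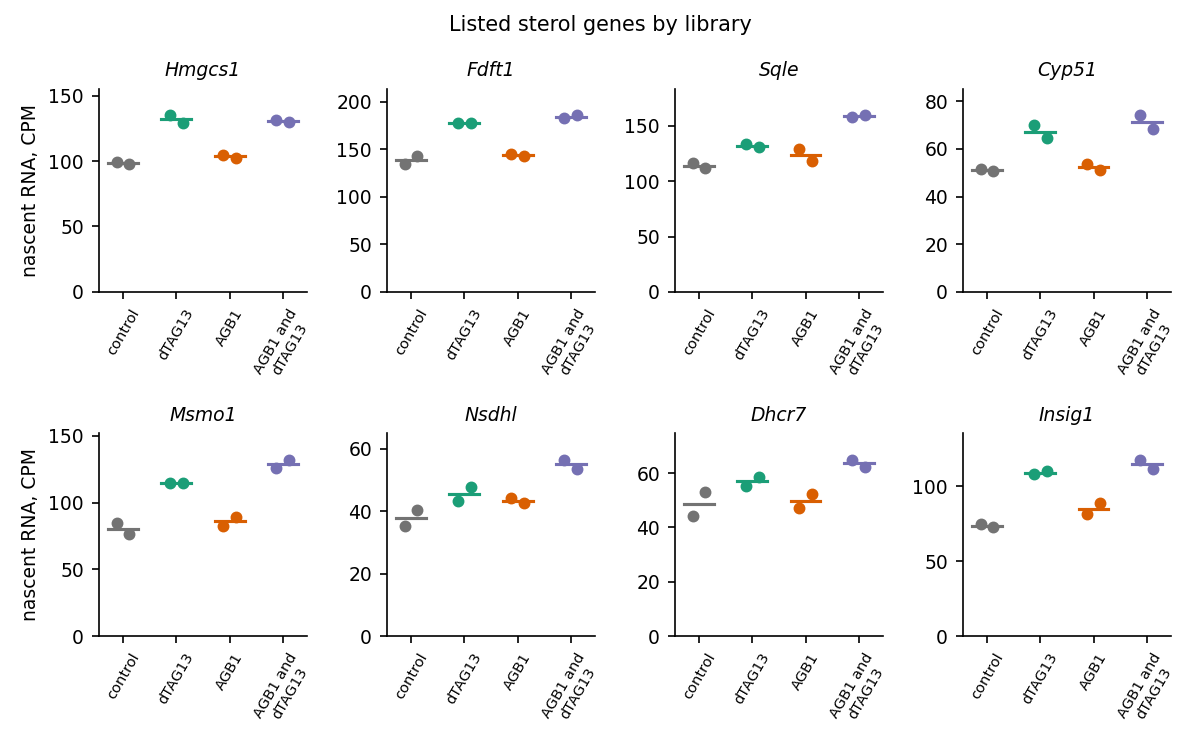
Nascent RNA (CPM) of the 8 listed sterol genes that rose on top of AGB1, with 1 point per library and a bar at each group mean, each panel from 0 on its own scale. In every panel both libraries with both agents lie above both AGB1 libraries, and both dTAG13 libraries lie above both control libraries. With dTAG13 alone the difference did not pass for Sqle, Nsdhl and Dhcr7.

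Some genes of a cohesin-dependent list also fell. The RAD21-activated list holds 108 expressed genes that were at least 1.5-fold lower, with adjusted p under 0.05, after 4 h of IAA in RAD21_AID cells, where the cohesin subunit RAD21 carries the auxin degron. Of these, 101 were tested and 6 fell: Epha2, Gprc5b, Epb41l4a, Prdm14, Tet2 and Pml. This is 5.94%, against 0.567% of all tested genes. None of the 6 passed in every alternative fit: without AGB1 replicate 2 the adjusted p was 0.0573 for Epha2, 0.549 for Epb41l4a and 0.587 for Tet2, and without AGB1 replicate 1 it was 0.172 for Gprc5b and 0.265 for Pml. The median was -0.12, with 79 of 101 below 0, and it was 0.00 with dTAG13 alone. Gprc5b, an orphan G-protein-coupled receptor, had 29.4 and 26.3 CPM after AGB1 and 17.3 and 19.8 after both agents (log2 change -0.60). Epha2, an ephrin receptor, had 92.8 and 93.8 CPM after AGB1 and 71.7 and 65.1 after both agents (log2 change -0.45). In both genes the groups did not overlap, and neither was changed by AGB1 alone at an adjusted p under 0.05 (0.455 and 0.896 by edgeR).

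Of 6 tested genes that the study names as enhancer targets, Epha4 and Prdm14 fell (33.3%), against 0.567% of all tested genes. Epha4 had 510.9 and 513.9 CPM after AGB1 and 416.6 and 406.2 after both agents, while control libraries had 520.3 and 521.7 and dTAG13 libraries 518.3 and 551.5. The both-agents libraries were thus the only low ones, with a log2 change of -0.32 ± 0.04 (SE, edgeR adjusted p = 6.26e-06). Prdm14, a regulator of naive pluripotency, had 73.8 and 74.1 CPM after AGB1 against 59.5 and 57.1. Without AGB1 replicate 2 its adjusted p was 0.243.

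**Figure D5:**
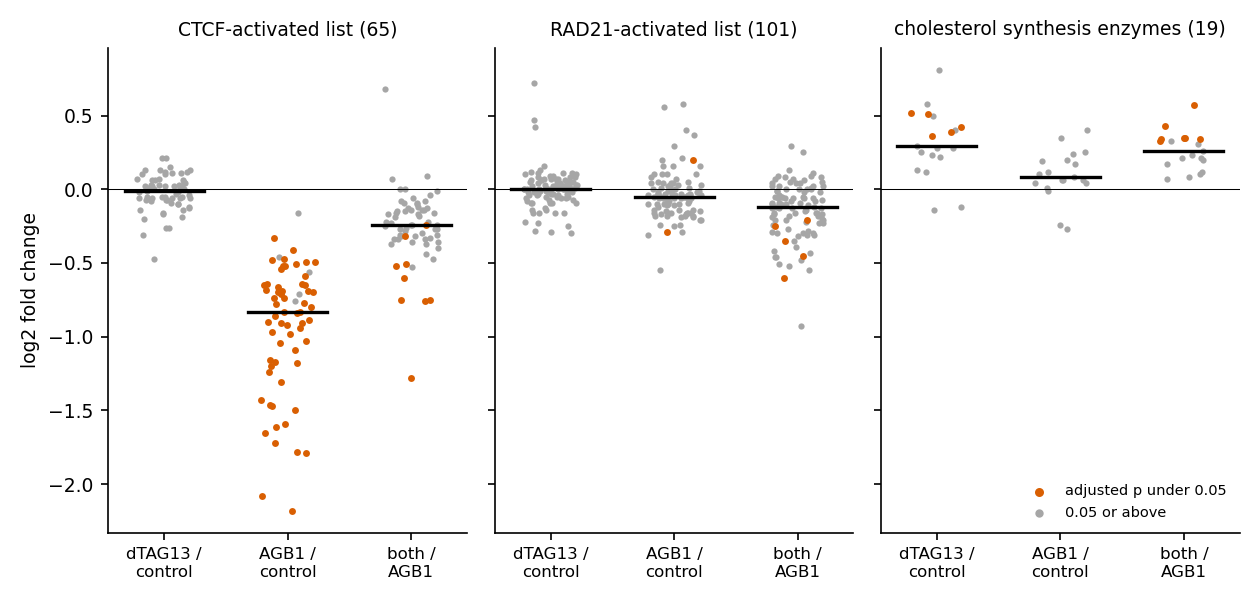
Log2 fold changes of the tested members of 3 lists (65, 101 and 19 genes) for dTAG13 over control, AGB1 over control and both agents over AGB1, with 1 point per gene, orange where the adjusted p was under 0.05, and a black bar at the median. CTCF-activated genes are near 0 with dTAG13 alone and below 0 in the other columns, RAD21-activated genes shift slightly below 0 when both agents are set against AGB1, and of the 19 cholesterol enzymes 17 lie above 0 with dTAG13 alone and all 19 when both agents are set against AGB1.

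The cells kept the markers of their labelled type. All 14 naive pluripotency genes were tested, and 2 of them fell (14.3%), Prdm14 and Nanog, against 0.567% of all tested genes. Nanog had 653.6 and 619.3 CPM after AGB1 and 570.9 and 552.9 after both agents (log2 change -0.19). Of the 14, 10 were below 0, with a median of -0.07. The summed CPM of the 14 genes was 5180.7 and 5155.4 in AGB1 libraries and 4967.7 and 4962.9 in libraries with both agents. Markers of fibroblasts summed to at most 1.42 CPM in any library and mesoderm markers to at most 6.1 CPM. Neural markers summed to at most 18.9 CPM, endoderm markers to at most 38.3 and primed markers to at most 121.1, where Dnmt3b alone reached 97.8. Only 2 of 5 primed, 2 of 4 neural and 2 of 5 endoderm genes passed the count filter, and 0 of these passed the test by edgeR or DESeq2. This concerns change and not presence. Ctcf itself had 287.1 and 286.0 CPM after AGB1 and 295.3 and 291.9 after both agents, with no change that passed (edgeR adjusted p = 0.796). This RNA value does not check the tagged proteins. Total counts were 8460761 to 11633383 in the 4 libraries compared.

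Several other lists had 0 members past the test by edgeR. The 12 tested genes of CTCF and the cohesin complex had a median of 0.06, 12 p53 targets -0.01, 9 heat shock and stress genes -0.01, 77 mitochondrial ribosomal protein genes -0.01, 92 cytosolic ribosomal protein genes 0.02, 36 proteasome genes 0.05 and 28 RNA polymerase subunits 0.00. Of 56 clustered protocadherin transcripts, whose promoters CTCF binds, 21 passed the count filter, and all 21 were below 0, at -0.19 to -0.30. These transcripts share exons and so share reads, and they do not count as separate measurements.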

How the data were processed

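EU-seq libraries were made by the authors from 5-EU pulsed cells. Per the labels and the study's methods, reads were trimmed with cutadapt, aligned to mm10 with BWA, filtered on mapping quality with SAMtools 1.4, cleared of rRNA and tRNA reads with bedtools, and counted with HTSeq over the gene body of representative transcripts (656 symbols have more than 1). The deposited values are raw counts. Per-library totals of the 4 libraries compared limit the precision. Here edgeR 4.0.16 in R 4.3.3 (TMM, quasi-likelihood test, two-sided, Benjamini-Hochberg) was fitted to the counts of the groups compared, for genes with a mean count above 20 in either group; it was tested on simulated data. Log2 fold changes were centred on the median of genes above 15 TPM (0.01 subtracted here). CPM used TMM library sizes of all 8 libraries. Gene names and mm10 coordinates came from GENCODE M21, which named 27455 of 27665 transcripts. No duplicated library was found. All 62 columns were mapped to samples.

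Genes named are the 15 largest falls and 8 largest rises among those past adjusted p with a mean of at least 50 counts in one group and no overlap, the 10 smallest interaction p-values, and listed genes; some genes are not reported here. The members and lists were chosen with earlier results of these data known. Alternatives were DESeq2 1.42.0, other filters, no centring, all 8 libraries, a replicate block, other list limits and leaving out each library.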

Additional observations from a re-analysis of the deposited data

Results flagged for a closer look

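The effect of dTAG13 differed with the presence of AGB1 in 14 genes, counted transcripts under 13 distinct names. The edgeR interaction test used 8 libraries and was adjusted over 13903 genes, of which 1095 had an unadjusted p under 0.05. The difference, with AGB1 minus without, was -0.71 on the log2 scale for Agfg1, -0.85 for Snhg17, -0.89 for Tab1, -0.57 for Api5, -0.48 for Wdr70, -0.78 for 1700021F05Rik, -0.36 for Epha4, -0.45 for Dnajc11, -1.25 for Nle1 and -0.43 for Ccdc141. In each of the 10 both libraries with both agents lay below both AGB1 libraries. Mycbp2, with the opposite sign, was the 1 gene among the 14 whose effect was higher with AGB1.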

How the results depend on the processing

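With 2 libraries a group and 8460761 to 11633383 counts a library, few genes passed and the counts moved with the libraries used. DESeq2 called 0 genes lower at 2-fold, and without that limit 15 fell and 11 rose, all of them among the edgeR genes. It gave no adjusted p for 7739 of the genes tested, 22 of the 115 among them. Nle1, Bdh2 and Inpp5e, the genes called by edgeR, were among these 22. It gave 8 interaction genes and 3 of the CTCF-activated list. With any count allowed, 6 genes were called lower, 125 fell and 72 rose, 1 gene was called higher for dTAG13 against control, and 32 interaction genes passed. With a mean count above 100, 0 were called lower, but Nle1, Bdh2 and Inpp5e were not tested at that filter. The expressed genes past 1.3-fold numbered 23 on the lower side and 19 on the higher there. They numbered 467 and 302 with no expression minimum and 202 and 106 at 5 TPM. In these filters the number of genes tested changes by construction.

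Leaving out 1 library gave 0 to 9 genes called lower and 0 to 1 called higher, 6 to 169 that fell and 4 to 96 that rose, 124 to 158 expressed genes 1.3-fold lower and 76 to 119 higher, 0 to 3 called lower for dTAG13 against control, 4 to 15 interaction genes, and 4 to 13 genes of the CTCF-activated list with a median of -0.262 to -0.217. Members taken at 2-fold gave 4 genes and a median of -0.288, at 1.3-fold -0.194, and from CTCF_AID alone -0.17. The cause of these shifts was not tested.

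Same-numbered replicates of the AGB1 and both-agents groups deviated with a correlation of 0.0337 over genes. Each deviation also holds counting noise, so this value cannot decide whether same-numbered libraries were paired. With the replicate block, 7 genes were called lower, 217 fell and 115 rose (all 78 and 37 reported genes among them), 32 interaction genes passed and 17 genes of the CTCF-activated list fell. No result changed its direction. Of 39 genes taken by the naming rule that passed, 9 passed in every alternative that gave them an adjusted p.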

Other observations

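A few other genes that rose on top of AGB1 are named here after their values were seen, and no list was tested. H3f3b, which encodes the replacement histone H3.3, rose by 0.33 on the log2 scale, Asf1b, a histone chaperone, by 0.32, and Nasp, another histone chaperone, by 0.18. Hnrnpk, Hnrnpa2b1, Srsf2 and Ncl, which encode RNA-binding proteins, rose by 0.13 to 0.16. With dTAG13 alone these 7 genes had log2 differences of -0.05 to 0.09, of which none passed by edgeR. Smc4, a condensin subunit, rose by 0.17 on top of AGB1.

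Among the genes that fell were Fgf4, a growth factor of early embryonic cells, and Gli2, a transcription factor of Hedgehog signalling, with log2 changes of -0.34 and -0.29 on top of AGB1 and differences of -0.03 and -0.04 with dTAG13 alone. Alpl, an alkaline phosphatase, and Kdm1a, a histone demethylase, fell as well, with log2 changes of -0.25 and -0.22.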
